A study of Mus musculus with 6 samples.

Results

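The GIMAP genes encode GTPases of immunity-associated proteins, a family of small GTP-binding proteins found mainly in lymphocytes. The 8 genes described here, Gimap1, Gimap3, Gimap4, Gimap5, Gimap6, Gimap7, Gimap8 and Gimap9, were found as all array probes that the platform annotation assigns to these symbols. They had 11 of the 25697 probes and were 8 of the 16593 named genes on the array. Gimap1, Gimap4 and Gimap5 had 2 probes each and the others 1.

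GIMAP proteins share a GTPase domain related to that of the plant protein AIG1, and several of them, among them GIMAP1, GIMAP3 and GIMAP5, are anchored in membranes inside the cell. The family is known chiefly from the survival of T cells: rats and mice without functional GIMAP5 lose most of their peripheral T cells, and mice without GIMAP1 lose mature lymphocytes. Some members have been reported to bind proteins of the BCL2 family or of autophagy. In the thymus, members are known to be expressed at different stages, before or after selection.

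Messenger RNA was measured in CD4+CD8+ thymocytes that had not yet been selected, from AND.Rag1-/-H-2d mice. In all groups alike the cells therefore carried the AND T cell receptor, specific for the cytochrome peptide MCC when I-Ek presents it, lacked Rag1 and had an H-2d background. Stimulation lasted 7 h and used plate-bound I-Ek Ig dimers loaded with MCC (given in the labels as negative selection signals), gp250 (positive selection signals) or Hb (non-selecting signals), with 2 arrays for each ligand and 6 in all. There was no unstimulated group, and whether the 2 arrays of a ligand stand for different mice or cultures is not in the labels. The p-values thus cover the spread between these arrays alone, which may be technical. The labels give no age for the mice.

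Each array gave a deposited signal and a detection p-value per probe, where a p-value under 0.05 means a signal above background. The mean deposited signal was 582 or 613 on the MCC arrays, 445 or 482 on the gp250 arrays and 470 or 488 on the Hb arrays. Between 10519 and 11603 probes were detected per array. Of 11 measured markers of CD4+CD8+ thymocytes, 10 were detected on at least 1 array. The exception was Cd8a, and its partner Cd8b1 was among those detected. Of the 10, 9 fell with MCC against Hb and 0 rose, beside 28.2% and 26.6% of all tested probes. Cd4, Rag2 and Ptcra, counted among the 9, were not detected on either MCC array. They entered the tests through the gp250 and Hb arrays, so they had to be lower with MCC. Changes given below are on the quantile-normalized log2 scale, from limma over 11942 tested probes, with a Benjamini-Hochberg adjusted p under 0.05 as the threshold, standard errors (SE) and n = 2 arrays per ligand. The number of arrays limits the precision.

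Of the 8 genes, 7 were detected on all 6 arrays by at least 1 probe. Gimap4, whose protein has been tied to T cell death in mice, was the exception: neither of its probes was detected on any array. The deposited signals of the brighter Gimap4 probe were 7.2 and 13.3 with MCC, 7.2 and 5.7 with gp250 and 14.2 and 18.1 with Hb, with detection p-values of 0.130 to 0.274. The other Gimap4 probe, which the annotation assigns to another transcript of the gene, lay between -14.0 and 3.3. Both were left out of the tests, and a level below the background of these arrays would not show.

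The remaining 9 probes entered the tests, and 8 of them were detected on every array. The ninth, the dimmer of the 2 Gimap5 probes, entered through the MCC arrays alone, so it had to be higher there, and it is counted apart from the 8. The plot of all probes by array shows that the points of the 3 ligands lay within a narrow range for most genes, with the dimmer Gimap5 probe standing apart with MCC.

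**Figure D1:**
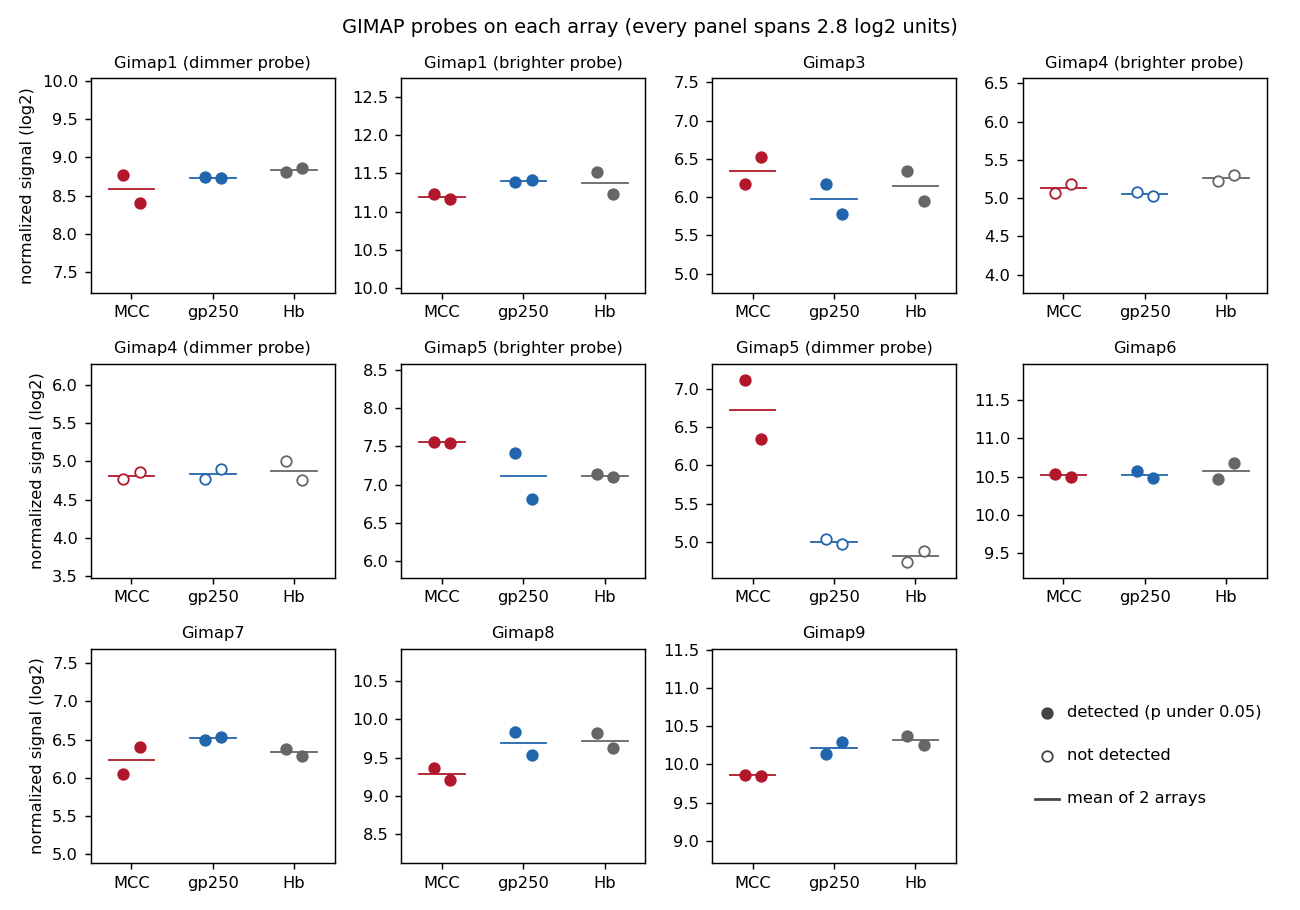
Normalized signal (log2, vertical axis) of each GIMAP probe on the 2 arrays of MCC, gp250 and Hb, with filled points for arrays on which the probe was detected and lines for the mean of 2 arrays. The dimmer Gimap5 probe was detected with MCC alone, Gimap8 and Gimap9 sat lower with MCC than with both other ligands, and neither Gimap4 probe was detected.

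Setting MCC against Hb addresses the response to negative selection signals, with non-selecting signals as the reference. Of the 8 probes detected on every array, 0 rose, 2 fell and 6 did not pass. The falls were those of Gimap9 (1.37-fold) and Gimap8 (1.35-fold). Apart from these, the dimmer Gimap5 probe was higher with MCC. Over all tested probes, 54.8% passed in the same comparison (26.6% rose and 28.2% fell). The median absolute log2 change was 0.22 for the 8 probes and 0.41 for all tested probes. The median signed change was -0.14 for the 8 probes and -0.03 for all. As the CD4+CD8+ thymocytes of a sample were measured together, fewer cells that express a gene and less RNA per cell cannot be told apart.

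Gimap5, needed for the survival of T cells after they leave the thymus, gave different results at its 2 probes. The dimmer one (ILMN_2701332) had deposited signals of 139 and 73.3 with MCC, 5.2 and 2.6 with gp250 and -13.1 and -3.6 with Hb. It was detected on both MCC arrays (p-values of 0.00125 and 0.0125) and on none of the other 4, where the p-values were 0.296 to 0.773. With both Hb arrays at background only a bound can be given. On the mean of the 2 MCC arrays, the transcript read by this probe was at least 2.03-fold higher with MCC. This bound does not cover the spread between the MCC arrays. The adjusted p of 0.000767 (limma) is that of the fitted difference from 0 and does not test the bound. As the probe entered the tests through the MCC arrays, that p is not independent of the filter. For the bound, each Hb array was given the lowest normalized signal of any detected probe there, or the probe's own where that was higher, and the MCC mean was divided by the mean of these. With no filter on dim probes, where every probe enters, the adjusted p was 0.00150. The fitted log2 difference of 1.92 is no measure of size, since it depends on how signals at background are handled: it was 1.18 with an offset of 50 and 2.74 with no background correction. The MCC arrays themselves differed at this probe, with normalized signals of 7.12 and 6.34.

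The brighter Gimap5 probe (ILMN_2643096) was detected on all 6 arrays. Its deposited signals were 196 and 195 with MCC, 135 and 92.2 with gp250 and 122 and 115 with Hb, so that the MCC arrays lay above all others. After normalization they read 7.56 and 7.55, against 7.41 and 6.81 with gp250 and 7.14 and 7.10 with Hb. The difference from Hb was 0.43 ± 0.19 and did not pass (adjusted p = 0.0963, limma; 95% interval -0.02 to 0.89). The spread between the 2 gp250 arrays enters this test, since the ligands share 1 estimate: with only the MCC and Hb arrays, or without either gp250 array, the same difference of 0.43 passed. It also passed with the arrays scaled to a common median (0.52) and without scaling between arrays (0.66). The annotation assigns both probes to the same Gimap5 transcript. Their sequences were not used here, so where each binds, and whether either also reads the close relative Gimap3, was not tested.

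Gimap9 and Gimap8 were lower with MCC. Gimap9 (ILMN_1236553) had normalized signals of 9.86 and 9.85 with MCC, 10.14 and 10.29 with gp250 and 10.37 and 10.25 with Hb. Both MCC arrays lay below the other 4 after normalization. Their deposited signals, 1087 and 1032, lay below those with Hb (1247 and 1095) and between those with gp250 (959 and 1171). The fall against Hb was 0.46 on the log2 scale (log2 difference -0.46 ± 0.10, 1.37-fold lower, adjusted p = 0.00895, limma). Without Hb replicate 1 the value was -0.40 and no longer passed.

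Gimap8 (ILMN_3088269), which encodes the largest member of the family, with several GTPase domains in tandem, read 9.36 and 9.21 with MCC, 9.84 and 9.53 with gp250 and 9.82 and 9.62 with Hb. Here too the MCC arrays lay below the other 4 after normalization. The deposited signals overlapped, with 748 and 654 for MCC, 776 and 687 for gp250 and 847 and 708 for Hb. The log2 difference from Hb was -0.44 ± 0.14 (1.35-fold lower, adjusted p = 0.0362, limma). It no longer passed without MCC replicate 1 (-0.51), MCC replicate 2 (-0.36) or Hb replicate 1 (-0.34), and with no filter on dim probes, which raises the number of probes in the adjustment, the same value missed the threshold.

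Gimap6, whose protein has been linked to autophagy in lymphocytes, was close to level across the ligands after normalization. It read 10.54 and 10.50 with MCC, 10.57 and 10.48 with gp250 and 10.48 and 10.68 with Hb, and the difference between MCC and Hb was -0.06 ± 0.10 (adjusted p = 0.662, limma; 95% interval -0.31 to 0.19). Its deposited signals, before any scaling between arrays, were 1754 and 1637 with MCC and 1304 to 1465 on the other 4 arrays, so the groups overlapped only after normalization. The sign turned, without passing, with the median scaling (0.14) and with no scaling (0.27).

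Gimap1, which mice need for mature B and T lymphocytes, did not pass at either probe. The brighter one (ILMN_3141165) read 11.22 and 11.17 with MCC, 11.39 and 11.41 with gp250 and 11.51 and 11.22 with Hb, a difference between MCC and Hb of -0.17 ± 0.12 (adjusted p = 0.257, limma). The dimmer one (ILMN_2722346) read 8.77 and 8.41 with MCC, 8.74 and 8.73 with gp250 and 8.81 and 8.86 with Hb, a difference of -0.24 ± 0.13 (adjusted p = 0.167). The lower of its MCC arrays, replicate 2, decided the value: it was -0.42, and passed, without MCC replicate 1, and -0.06 without MCC replicate 2. Both probes pointed down as reported and up, without passing, when the arrays were not scaled (0.13 and 0.02). The MCC arrays lay below the Hb arrays at the dimmer probe only.

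Gimap3 and Gimap7 had signals near background, with detection p-values of 0.00877 to 0.0313 and 0.00627 to 0.0213. Gimap3, which encodes a protein of the outer mitochondrial membrane in mice, read 6.17 and 6.52 with MCC, 6.17 and 5.78 with gp250 and 6.34 and 5.95 with Hb. The difference between MCC and Hb was 0.20 ± 0.20 (adjusted p = 0.444, limma), and the groups overlapped. Gimap7, another family GTPase, read 6.05 and 6.41 with MCC, 6.50 and 6.53 with gp250 and 6.38 and 6.29 with Hb. Its difference was -0.11 ± 0.13 (adjusted p = 0.528; 0.06 with no scaling), and the MCC arrays lay on either side of the Hb arrays. For the 8 probes other than the dimmer Gimap5 probe, the 95% interval of the change with MCC stayed within 2-fold up or down, and for 4 of them within 1.5-fold.

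**Figure D2:**
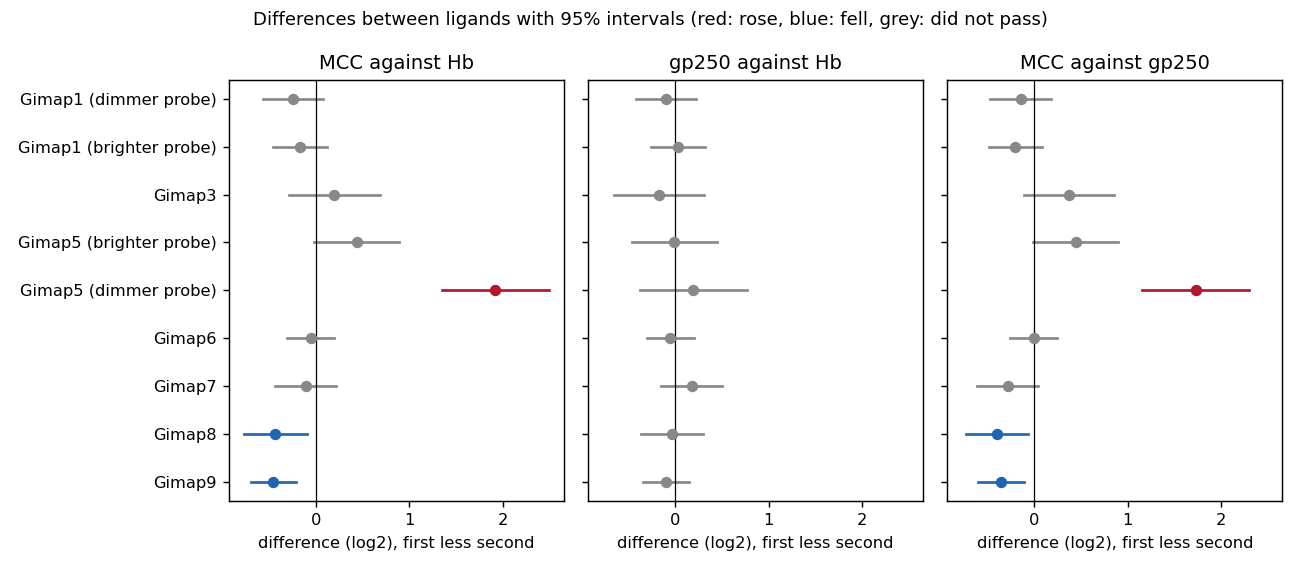
Log2 differences (horizontal axis) between each pair of ligands for the 9 tested GIMAP probes, as points with 95% intervals from limma. The dimmer Gimap5 probe was at background with gp250 and Hb, so its intervals do not bound the transcript. In both comparisons with MCC it lay to the right of 0 and Gimap8 and Gimap9 to the left, while the intervals of the 8 other probes for gp250 against Hb spanned 0.

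These changes are relative to the rest of the array, and the small ones depended on how arrays were made comparable. Without scaling between arrays the median tested probe was 0.22 higher with MCC than with Hb, against -0.03 after quantile normalization, and 69.9% of the passing probes rose, against 48.5%. With scaling to a common median the median probe was 0.08 higher and 59.0% of the passing probes rose. The falls of Gimap8 and Gimap9 did not pass under either setting. They were -0.28 for both genes with the median scaling and -0.14 for both with no scaling. Set against the median probe of the same setting, Gimap8 lay at -0.41 after quantile normalization and -0.36 under both other settings, and Gimap9 at -0.43 and -0.36. Those other settings differ by a constant per array, so by construction they give the same value here. In the authors' processed table, which gives every array the same mean, the falls passed, at -0.45 for Gimap8 and -0.45 for Gimap9. The dimmer Gimap5 probe passed in the 15 alternative settings that tested it. Apart from the setting with no filter on dim probes, these kept the filter that it met through the MCC arrays alone. Passing there is thus not independent of the filter. The probe was not tested under both stricter detection filters, which it does not meet.

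**Figure D3:**
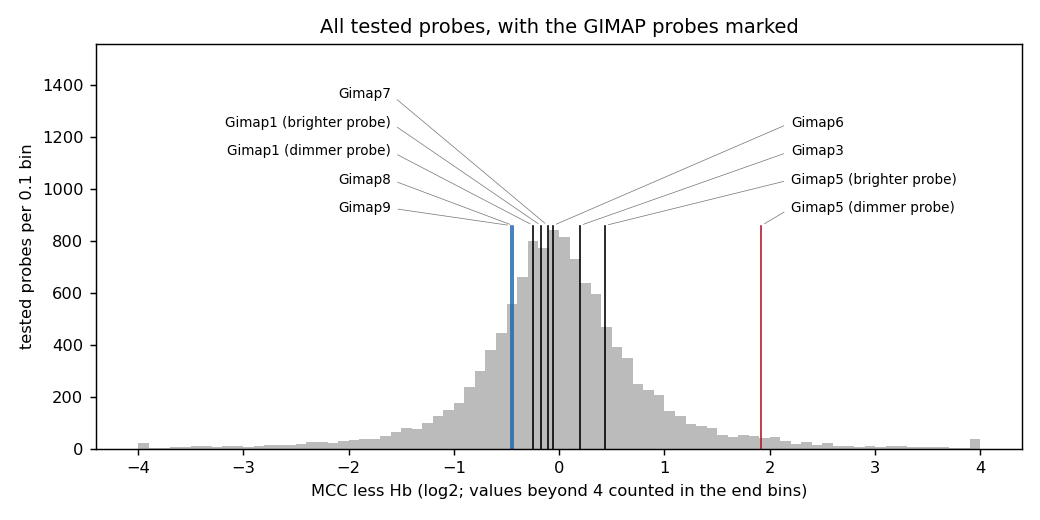
Number of tested probes (vertical axis) by log2 difference between MCC and Hb (horizontal axis, bins of 0.1), with a line for each GIMAP probe, red where it rose, blue where it fell and black where it did not pass. Most GIMAP probes lay in the middle of the distribution, between -0.46 and 0.43, and the dimmer Gimap5 probe, at background with Hb, at a fitted 1.92.

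**Figure D4:**
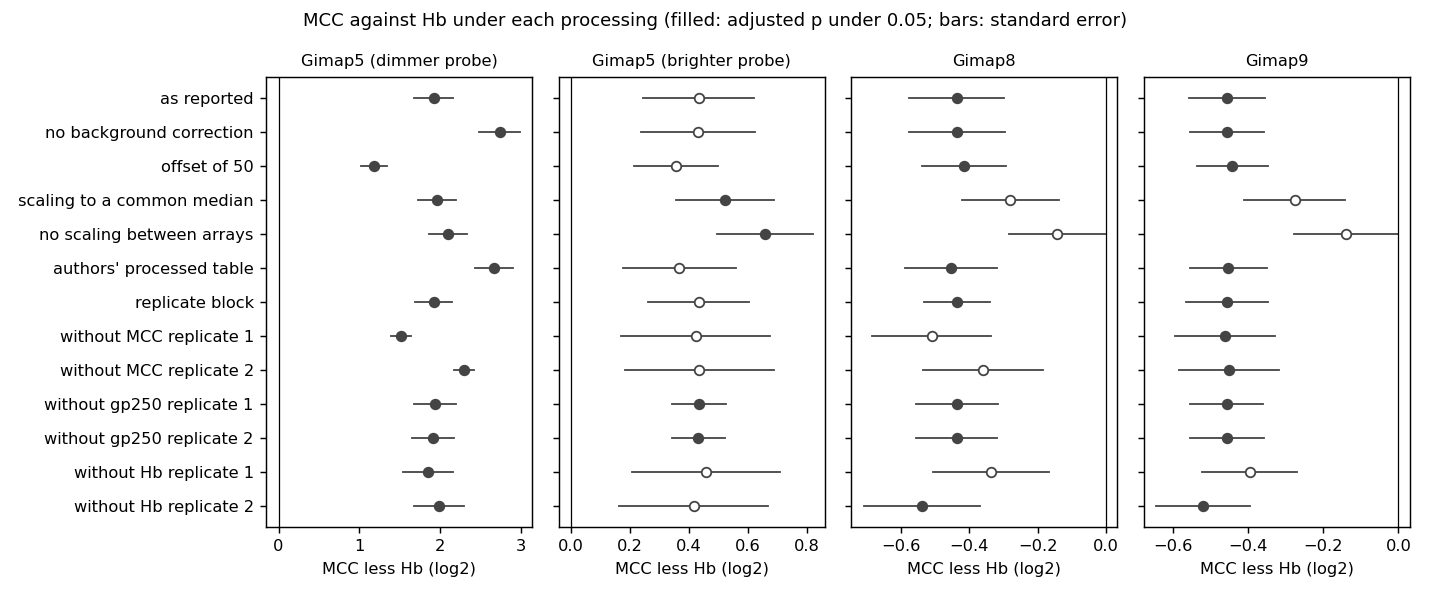
Log2 difference between MCC and Hb (horizontal axis, points, with standard errors as bars) for both Gimap5 probes, Gimap8 and Gimap9 under each processing setting, filled where the adjusted p was under 0.05. The dimmer Gimap5 probe is filled in every setting shown, while Gimap8 and Gimap9 are open under both other scalings and without Hb replicate 1.

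Positive selection signals were compared with the same non-selecting reference through gp250 against Hb. No GIMAP probe passed: the differences of the 8 probes detected on every array lay between -0.17 and 0.18 on the log2 scale, with adjusted p-values of 0.901 to 0.997 (limma), and 0 had an unadjusted p under 0.05. Over all tested probes 0 passed (0%), with 782 at an unadjusted p under 0.05. The largest differences were those of probes near background, Gimap7 at 0.18 ± 0.13 and Gimap3 at -0.17 ± 0.20. Since neither ligand gave a detected signal at the dimmer Gimap5 probe, no difference can be given for it. Gimap6 differed by -0.05 ± 0.10, Gimap8 by -0.04 ± 0.14 and Gimap9 by -0.10 ± 0.10. The 8 intervals stayed within 2-fold up or down, and 7 of them within 1.5-fold. The outer bounds were -0.66 for Gimap3 and 0.50 for Gimap7. Smaller differences were not detectable with these arrays, and this comparison shares its Hb arrays with the one above.

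MCC against gp250 sets the negative-selecting against the positive-selecting ligand. It uses the same MCC arrays, so it is no independent repeat. Of the 8 probes detected on every array, 0 rose and the same 2 fell, where 55.8% of all tested probes passed (27.1% rose and 28.6% fell). Counted apart, the dimmer Gimap5 probe was at least 2.14-fold higher on the mean of the MCC arrays. Its adjusted p of 0.00119 (limma) is that of the fitted difference, again for a probe that entered the tests through the MCC arrays alone. Gimap9 was lower by -0.36 ± 0.10 on the log2 scale (adjusted p = 0.0225) and Gimap8 by -0.40 ± 0.14 (adjusted p = 0.0474). The call of Gimap8 did not hold without any 1 of 5 arrays, gp250 replicate 2 being the exception (values -0.25 to -0.47 without those 5), nor that of Gimap9 without MCC replicate 1 (-0.36), MCC replicate 2 (-0.35) or gp250 replicate 2 (-0.28). The brighter Gimap5 probe differed by 0.44 ± 0.19 (adjusted p = 0.0904) and passed without gp250 replicate 1 (0.74). Gimap3 differed by 0.37 ± 0.20, Gimap7 by -0.29 ± 0.13, which passed without MCC replicate 2 (-0.47), Gimap6 by -0.01 ± 0.10 and the Gimap1 probes by -0.20 ± 0.12 and -0.15 ± 0.13. Without scaling between arrays, the falls of Gimap8 and Gimap9 were -0.06 and -0.00 and did not pass. In that setting Gimap3 (0.59), Gimap6 (0.36) and both Gimap5 probes rose, with the median of all tested probes at 0.27.

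Ordered by ligand mean, Gimap9 ran from Hb (10.31 ± 0.09, SD, n = 2) through gp250 (10.21 ± 0.11) to MCC (9.85 ± 0.01), and Gimap8 from Hb (9.72 ± 0.14) through gp250 (9.69 ± 0.21) to MCC (9.28 ± 0.11). In both genes Hb and gp250 did not differ beyond the spread of their arrays. At the dimmer Gimap5 probe MCC (6.73 ± 0.55) stood above gp250 and Hb, which were at background and have no order. For the other tested probes no ligand's mean differed from another's beyond the test.

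All 8 genes lie in 1 run on mouse chromosome 6, in the order Gimap8, Gimap9, Gimap4, Gimap6, Gimap7, Gimap1, Gimap5 and Gimap3, with no other protein-coding gene between them in the RefSeq table. Gimap8 and Gimap9, which fell with MCC, are the first 2 of the run, and Gimap5 is the seventh of it. Of the 10 protein-coding genes that flank the run, 5 on each side, 8 had a probe and 3 were tested. Genes with 2 probes are given by the one that was tested. Repin1, a zinc finger protein gene on the Gimap8 side, rose by 1.20 ± 0.16 on the log2 scale with MCC against Hb (adjusted p = 0.000953, limma). On the Gimap3 side the membrane protein genes Tmem176b (-1.20 ± 0.14, adjusted p = 0.000546) and Tmem176a (-0.73 ± 0.11, adjusted p = 0.00192) fell, Tmem176a with detection on 1 of the 2 MCC arrays. All 3 flanking genes changed more than any GIMAP gene between them other than the dimmer Gimap5 probe, and none passed with gp250 against Hb.

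**Figure D5:**
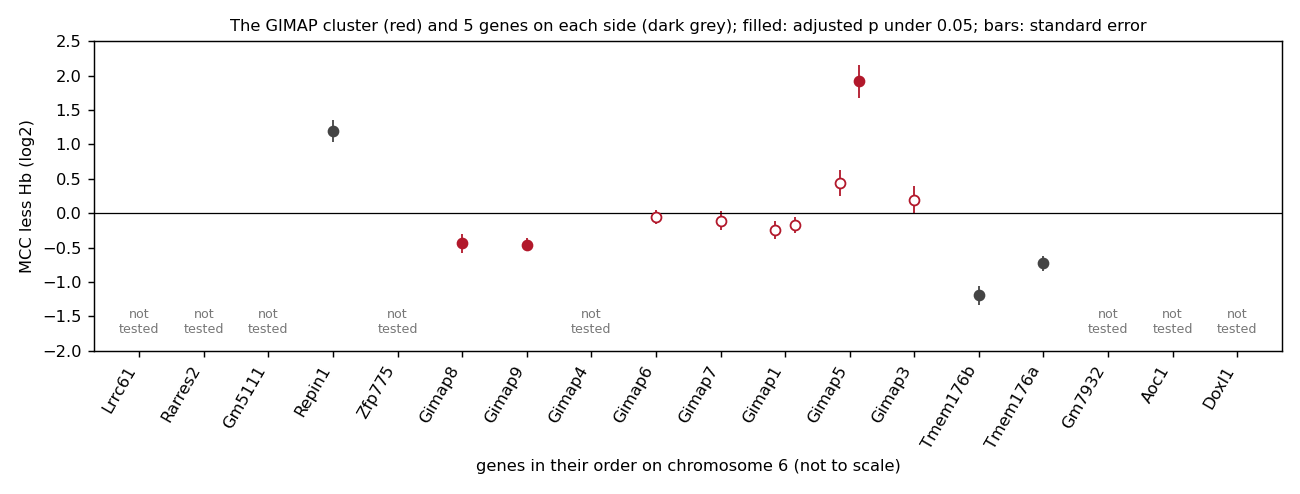
Log2 difference between MCC and Hb (vertical axis, points, with standard errors as bars) for the genes of the GIMAP run and 5 genes on each side, in their order on the chromosome and not to scale. The flanking genes Repin1 (1.20), Tmem176b (-1.20) and Tmem176a (-0.73) lay further from 0 than the GIMAP genes between them, other than 1 Gimap5 probe.

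The promoters of the genes with a passing probe are shown as the upstream sequence of the 3 members with a call. The stretches below are the 250 bases before the annotated start, 5′ to 3′ in the direction of the gene, from RefSeq (GRCm38.p6). No build is named for the array, and its data do not measure promoters. Capitals mark matches on either strand to 9 short motifs, which are spelled out after the sequences.
Gimap5 (chr6:48745947-48746196, plus strand): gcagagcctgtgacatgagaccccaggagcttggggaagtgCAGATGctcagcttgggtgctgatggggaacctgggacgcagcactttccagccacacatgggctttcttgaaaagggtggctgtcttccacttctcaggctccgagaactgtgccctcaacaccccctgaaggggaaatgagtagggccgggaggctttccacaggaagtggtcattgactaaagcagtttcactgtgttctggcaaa
Gimap8 (chr6:48646984-48647233, plus strand, the first of 2 starts): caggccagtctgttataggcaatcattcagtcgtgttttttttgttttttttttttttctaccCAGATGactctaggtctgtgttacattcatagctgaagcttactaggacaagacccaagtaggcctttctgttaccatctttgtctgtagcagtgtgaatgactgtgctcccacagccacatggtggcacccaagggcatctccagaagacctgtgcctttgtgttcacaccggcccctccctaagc
Gimap9 (chr6:48675885-48676134, plus strand): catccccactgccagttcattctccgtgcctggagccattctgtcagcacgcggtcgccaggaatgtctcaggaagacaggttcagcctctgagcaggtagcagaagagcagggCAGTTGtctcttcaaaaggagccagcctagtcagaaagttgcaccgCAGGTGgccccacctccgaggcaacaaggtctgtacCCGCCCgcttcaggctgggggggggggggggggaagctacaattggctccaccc

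In these stretches Gimap5 and Gimap8 held 1 E-box match each, 209 to 204 and 187 to 182 bases before the start. Gimap9 held 2 E-box matches and 1 GC box, the latter 54 to 49 bases before the start. The table had 9 windows for the 8 genes, 2 of them for Gimap8, and all 8 genes were matched. The E-box letters (CAGNTG) were found in 4 of the 9 windows and in 44.8% of all 32851 windows of the table. The GC box (GGGCGG) was found in 2 of the 9 and in 32.7% of all. The RUNX letters (TGTGGT) were found in 3, those of Gimap1, Gimap4 and Gimap7, and in 14% of all. The TATA box (TATAAA) was found in 1, that of Gimap6, and in 12.4% of all. The FOXO letters (GTAAACA) were found in 1, that of Gimap3, and in 3.17% of all. Of the 9 windows 0 held the letters for ETS factors (CCGGAAG, in 6.91% of all windows), for AP-1 (TGANTCA, in 6.75%), for RBPJ (TGGGAA, in 21.6%) or for EGR factors (GCGTGGGCG, in 0.536%). The 250 bases before Gimap9 held 8 CG pairs and those of the other 7 genes 1 to 3, with a median of 6 over all windows. A match is a description of letters and not of binding.

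The genes whose 6 array values, less their own mean, were nearest to those of a GIMAP probe were picked by the root mean square distance on the log2 scale among 11225 named probes. For Gimap9 they were Sort1, a sorting receptor gene (distance 0.03, MCC less Hb -0.41), and Rb1, the retinoblastoma gene (0.03, -0.41). For Gimap8 they were Phka2, a phosphorylase kinase subunit gene (0.03, -0.38), and Zfp90, a zinc finger gene (0.05, -0.44). For the brighter Gimap5 probe they were Rnf207 (0.03, 0.49) and Exog, an endonuclease-like gene (0.04, 0.39). Many genes were nearly as close: 420 probes lay within 0.1 of Gimap9, 155 of Gimap8 and 25 of Gimap5.

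Genes of the processes that GIMAP proteins have been tied to were counted by their brightest tested probe, MCC against Hb, beside the 54.8% of all probes that passed. Of 13 BCL2 family genes, 2 rose and 6 fell (median log2 -0.11), against 5 and 6 without scaling between arrays (median 0.09). Bcl2a1d, 1 of the 2 that rose, was detected on the MCC arrays alone, so it had to be higher there. The median absolute log2 change of the 13 genes was 1.18. Among them Bcl2, a survival gene that some GIMAP proteins have been reported to bind the product of, rose, with deposited signals of 1314 and 1031 with MCC against 33.9 and 39.7 with Hb, where it was detected on 1 of the 2 arrays, and Bcl2l1, the BCL-XL gene, fell 12.6-fold. Of 14 genes of T cell quiescence, survival and egress, 0 rose and 10 fell (median -0.76), led by Pik3ip1, an inhibitor of PI3 kinase, at -2.90 ± 0.09 and Slfn2, a quiescence gene of mouse T cells, at -2.03 ± 0.30. With no scaling between arrays 2 of these rose and 8 fell. Il7r and Ccr7, counted among the 10 that fell, were not detected on either MCC array. Both entered the tests through the gp250 and Hb arrays, so they had to be lower with MCC.

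Of 17 autophagy and lysosome genes, 1 rose and 5 fell (median -0.09), among them Map1lc3b, which encodes the autophagosome protein LC3B, at -1.01 ± 0.15 and Atg13 at -0.90 ± 0.11. Without scaling between arrays the split turned, with 6 up and 4 down. Of 13 septins and dynamin-like GTPases, proteins whose GTPase domains resemble those of GIMAPs, 2 rose and 3 fell (median -0.12), against 5 and 2 without scaling. The septin gene Septin7 (Sept7 in the annotation), 1 of the 2 that rose, was detected on the MCC arrays alone. Its probe entered the tests through them, so it had to be higher there. On the mean of the MCC arrays it was at least 2.60-fold above Hb, where it was not detected. Dnm2 (dynamin 2) fell by 1.22 ± 0.11 on the log2 scale. Of 8 guanylate-binding and immunity-related GTPases, inducible by interferon, 1 rose and 3 fell (median 0.05), against 3 and 1 without scaling. Gbp3 rose 3.25-fold and Igtp fell by 0.83 ± 0.18 on the log2 scale, a call that was lost without scaling. With gp250 against Hb, 0 genes of the 5 lists passed.

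Other cells of a thymus preparation also express GIMAP genes, and their markers were read from the same arrays. The sums below are of deposited signals, with values below 0 counted as 0 and no scaling between arrays. The MCC arrays had the higher mean signals, so differences between these sums include array brightness. Of 9 endothelial markers 7, among them Cdh5, Kdr and Tek, were not detected on any array, and the 9 markers together gave a deposited signal of 574 to 581 on the MCC arrays, 1099 to 1308 on the gp250 arrays and 1187 to 1302 on the Hb arrays. Most of that signal was Pecam1, which fell 3.19-fold with MCC against Hb, while the other detected marker, Egfl7, rose 1.90-fold. Of 7 markers of mature T cells, which include Il7r, Ccr7 and Klf2, only S1pr1 was not detected on any array. The sums for the same ligands were 808 to 810, 2088 to 2183 and 2376 to 2472. Most of that signal was Klf2, which fell 3.90-fold with MCC against Hb, and Itgb7, which fell 3.78-fold. Il7r and Ccr7 were not detected on either MCC array. Cd44 pointed up (log2 difference 0.39) and did not pass. Of 8 markers of NK and innate lymphoid cells 6, Ncr1 and Klrb1c among them, were not detected (sums 220 to 228, 204 to 267 and 264 to 281). The level sums hid opposite changes: Nkg7 rose 2.27-fold, and Il18r1 fell, from deposited signals of 147 and 151 with Hb to below detection on both MCC arrays. Il18r1 entered the tests through the gp250 and Hb arrays, so it had to be lower with MCC. Of 7 B cell markers 2, Pax5 and Cd22, were not detected (sums 1115 to 1150, 1175 to 1332 and 1305 to 1308). Here too members went both ways: Blk rose 4.36-fold, while Cd79b fell 5.27-fold. Cd79a also fell, with deposited signals of 27.6 and 33.1 with MCC and 38.4 and 51.0 with Hb. It was not detected on either MCC array and entered the tests through the other ligands, so it had to be lower with MCC. Markers of myeloid cells were undetected for 5 of 9, with sums of 696 to 734 with MCC and 461 to 543 with the other ligands. Most of that signal was H2-Ab1, which rose 1.46-fold with MCC against Hb. Cd74 (log2 difference -0.47) and Fcer1g (-0.24) pointed down and did not pass. For epithelium and stroma 6 of 7 were undetected (126 to 146 and 94.0 to 121), and for erythroid cells 2 of 3 (2717 to 2744 and 2981 to 3707). Genes such as Pecam1 and Cd79b can also be expressed by T lineage cells, and the part of these cells in the GIMAP values was not tested.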

How the data were processed

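Messenger RNA of 6 samples was read on Illumina mouse arrays of 1 colour. What the authors deposited is, per the file headers, an intensity without normalization and the p-value of its detection, probe by probe. Every array holds an intensity below 0, so a background had been subtracted. A processed table by the authors multiplies this intensity by 1 factor per array (0.825 to 1.13), which gives every array a mean of 505. The sources used here do not name the scanner software.

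With limma 3.58.1 in R 4.3.3, intensities were corrected by normexp from the detection p-values, with an offset of 16, quantile-normalized and converted to log2. Both steps pull the changes of dim probes towards 0. Probes with a detection p under 0.05 on at least 2 arrays were tested (11942), with 1 mean per ligand over all 6 arrays (3 residual degrees of freedom), and p-values were adjusted by Benjamini-Hochberg over all tested probes in each comparison. Intervals are 95% intervals of that model. The fit was also run on simulated data with independent noise and far fewer changed probes than here. That run does not test the background correction or the normalization. The platform annotation names 1 gene for 23978 probes, several for 0 and none for 1719. Entrez numbers linked 23962 of them to the RefSeq table of GRCm38.p6, used for names, gene order and promoter sequences.

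Named were all members, the 2 genes nearest in pattern to each member with a passing probe, 5 flanking genes on each side and, per list, the 2 passing genes with the largest change. Marker genes were picked for naming with their values in view. The members and lists were chosen with earlier results of these data known. Alternatives concerned background, offset, scaling, filters, moderation, the replicate block, left-out arrays and the other tested probe of a gene.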

Additional observations from a re-analysis of the deposited data

How the results depend on the processing

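With each array left out in turn, 1 to 4 GIMAP probes passed for MCC against Hb and 1 to 3 for MCC against gp250, against 3 in each as reported; the former fell to 1 without Hb replicate 1 and the latter to 1 without MCC replicate 1. These counts include the dimmer Gimap5 probe, which entered the tests through the MCC arrays alone. Where a left-out array leaves a ligand with 1 array, that array is assumed to vary like those of the other ligands, and the tested probes were kept as for all 6 arrays. For gp250 against Hb 0 GIMAP probes passed in any setting. Gimap6, at -0.01 for MCC against gp250 as reported, changed sign to 0.36 and passed without scaling between arrays. The dimmer Gimap5 probe leaves the tests under both stricter detection filters, since it was detected on the MCC arrays alone. The replicate numbers did not pair the arrays (deviations of arrays of the same number correlated with r = 0.02, -0.00 and -0.02). With the replicate block 6331 probes passed for MCC against Hb and 6474 for MCC against gp250, against 6545 and 6658 without it, and no GIMAP call changed. For MCC against Hb, 130 of the single-probe results under an alternative kept direction and side of the threshold, 9 lost and 7 gained a call, and 7 changed sign without a call in either. The alternatives counted include, for Gimap1 and Gimap5, the other tested probe of the gene. Of the 7 gains, 1 is the dimmer Gimap5 probe put in place of the brighter. For dim probes the signal over background limits what can be seen: Gimap4 and, outside MCC, 1 Gimap5 probe had no measurable level.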
